A study of Rattus norvegicus with 132 samples.

Results

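Jejunum epithelium of irradiated rats given compound Kushen powder by mouth (the descriptions of samples say pill) was compared with that of rats given the oral vehicle, water. The preparation is a herbal one, and all animals were Sprague Dawley rats. The libraries were chosen by their labels alone: powder at day 4, powder at day 7, vehicle at day 4 and vehicle at day 7, with 6 libraries each, which are 24 of the 132 libraries of the series. All 4 groups had abdominal irradiation in 5 fractions of 4 Gy, given from day 0 to day 4 per the labels, so the vehicle rats carried the same irradiation as the powder rats. Jejunum of irradiated rats without any treatment, with 6 libraries per day, is given as background. The fit and the principal components also hold 6 jejunum libraries of non-irradiated rats, which makes 42 libraries. The labels state neither the dose and schedule of the powder nor the age and sex of the rats. RNA was taken in bulk from epithelial tissue, so fewer cells of a type and less RNA per cell cannot be told apart. The labels call the libraries of a group biological replicates without naming the rats, so the p-values measure the spread between these libraries.

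The crypts of the small intestine hold the dividing stem and progenitor cells, which irradiation depletes. The villi carry absorptive enterocytes, with mucus-secreting goblet cells, hormone-secreting enteroendocrine cells and chemosensory tuft cells among them. An oral preparation meets this epithelium directly, and compounds in it can reach sensors of foreign chemicals: the aryl hydrocarbon receptor induces cytochrome P450 genes of the Cyp1 family, and NRF2 induces antioxidant genes.

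Promoter sequences are shown for Cyp1b1 and Ahrr, since 3 of the 5 receptor target genes tested, Cyp1a1, Cyp1b1 and Ahrr, stood higher with powder at day 4 at an unadjusted p under 0.05, and the windows of Cyp1b1 and Ahrr could be searched for the core motif of the receptor, GCGTG. Each window runs from 250 bases before to 50 bases after the gene start, is taken from RefSeq on build GRCr8, and stands at chr6:21094315-21094614 (plus strand) for Cyp1b1 and chr1:30821969-30822268 (plus strand) for Ahrr. Capitals mark the motif on either strand, GCGTG or CACGC.
Cyp1b1: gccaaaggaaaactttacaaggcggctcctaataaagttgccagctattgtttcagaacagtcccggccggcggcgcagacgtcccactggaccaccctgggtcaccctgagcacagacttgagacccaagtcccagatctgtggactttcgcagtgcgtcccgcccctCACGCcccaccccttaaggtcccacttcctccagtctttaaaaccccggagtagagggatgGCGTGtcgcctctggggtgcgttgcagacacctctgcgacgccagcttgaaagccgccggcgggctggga
Ahrr: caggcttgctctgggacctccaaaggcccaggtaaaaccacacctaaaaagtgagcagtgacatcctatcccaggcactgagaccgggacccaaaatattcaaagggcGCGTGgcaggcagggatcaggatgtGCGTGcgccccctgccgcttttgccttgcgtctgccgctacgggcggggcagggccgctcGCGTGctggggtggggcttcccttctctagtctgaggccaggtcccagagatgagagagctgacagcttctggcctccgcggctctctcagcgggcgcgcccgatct
Of the 7 genes on the receptor target list, 5 had a window in the RefSeq table. Cyp1b1 had 2 matches, Ahrr 3, Tiparp 1, Ugt1a6 1 and Cyp1a2 0. Among 33469 rat promoters of the same length, 29.7% held at least 1 match and 3.59% held at least 3, so a single match is common. The share with at least 2, the count of Cyp1b1, was not computed. These promoters were not matched to the list for base composition. A match is a description of the letters, and no binding was measured.

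Totals of the 24 libraries ran from 18.5 to 19.8 M counts, with 13971 to 15345 genes detected. Levels are given in CPM, counts relative to the library total scaled by TMM factors. Markers of jejunal enterocytes were high, with Apoa4, an apolipoprotein of dietary lipid transport, at 1244 to 37380 CPM over the 24 libraries. Car1, a carbonic anhydrase that marks colon, reached 1.08 CPM in them and the pancreatic enzyme gene Prss1 0.0662 CPM. For these markers the CPM were scaled over jejunum and colon libraries together. On the first 2 principal components of the 42 libraries, with 47.4% and 19.7% of the variance, 4 of the 24 stood apart from the rest of their own group: vehicle day 4 replicate 3, vehicle day 7 replicates 3 and 4, and powder day 7 replicate 3. They were chosen after seeing the data and without a set limit. The vehicle libraries among them lay at -41.9 to -37.9 on the second component, within the range of untreated irradiated day 7 libraries (-50 to -8.8). Each group holds 3 libraries of library series 1 (replicates 1 to 3) and 3 of library series 2 (replicates 4 to 6), as read from the first digit of the library name, and the fit has a term for it. The share of counts from mitochondrial genes was 9.08% ± 1.27 in powder and 8.79% ± 3.21 in vehicle libraries at day 4 (SD, n = 6 each, two-sided exact permutation p = 0.851). At day 7 it was 5.12% ± 0.73 in powder and 5.40% ± 1.32 in vehicle libraries (SD, n = 6 each, two-sided exact permutation p = 0.701).

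Set against vehicle, powder went with a called difference in 1 gene at each day. At day 4 Kprp, a protein of the keratinocyte envelope in skin, rose. At day 7 Rusc1, an adapter protein with a RUN and an SH3 domain, rose. No gene was called on both days or for the average over the days. A gene is called when the Benjamini-Hochberg adjusted p of the edgeR quasi-likelihood F test, over all 12501 genes tested, is under 0.05.

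The called gene was 0.008% of the genes tested at day 4, and the called gene at day 7 was likewise 0.008%. For the average over the days edgeR called 0%, with a smallest adjusted p of 0.332, while 503 genes had an unadjusted p under 0.05 (190 higher and 313 lower with powder) and DESeq2 called 3. Unadjusted p-values under 0.05 were reached by 521 genes at day 4 (275 higher, 246 lower) and by 446 at day 7 (111 higher, 335 lower), where DESeq2 called 16 and 1 genes. The median standard error of a log2 fold change was 0.227 at day 4, 0.226 at day 7 and 0.16 for the average. The median log2 fold change over all genes was -0.03 at day 4, -0.02 at day 7 and -0.02 for the average. The ranges of the 6 powder and 6 vehicle values did not overlap for 47 genes at day 4 (28 higher, 19 lower), which is 0.376% of those tested, and for 57 genes at day 7 (27 higher, 30 lower), which is 0.456%. None of these genes was separated in the same direction on both days, with 0 higher and 0 lower.

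Kprp stood at 4.25, 3.45, 21.8, 2.59, 0.754 and 4.13 CPM in the powder libraries of day 4, against 0.168, 0, 0, 0, 0.059 and 0.165 CPM in the vehicle libraries. Every powder library was above every vehicle library, with 634 counts over the powder group and 7 over the vehicle group, and powder replicate 3 was far above the rest. Against vehicle the log2 fold change was 6.39 ± 1.01 (SE, adjusted p = 0.0026, edgeR), its size resting on few counts in the vehicle group. Untreated irradiated rats ranged from 0 to 3.53 CPM at day 4 and overlapped with both groups. At day 7 Kprp was low throughout, at most 0.162 CPM with powder and 0.38 CPM with vehicle. The call held when any 1 of the 12 day 4 libraries was left out (adjusted p 0.000947 to 0.0227, edgeR) and without the 4 libraries that stood apart (adjusted p = 0.026). Within library series 1 alone the adjusted p was 0.445 and within series 2 alone 0.108, with log2 fold changes of 7.43 and 4.91.

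A neighbour in pattern was 2310050C09Rik, a gene without an established role here. It stood at 0.778, 0.891, 2.51, 0.777, 0.251 and 1.55 CPM in the powder libraries of day 4, against 0.056, 0, 0.043, 0, 0 and 0.055 CPM in the vehicle libraries. The groups did not overlap, but the vehicle group held 3 counts in all, the gene was not called with 42 libraries in the fit (adjusted p = 0.107, edgeR) and was called with 84 (0.0029), and untreated rats ranged from 0 to 1.5 CPM. At day 7 it was at 0 in all 12 powder and vehicle libraries.

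Rusc1 at day 7 stood at 379, 381, 313, 408, 397 and 469 CPM in powder libraries, against 270, 251, 261, 282, 293 and 229 CPM in vehicle libraries. All powder libraries were above all vehicle libraries, and untreated irradiated rats ranged from 193 to 321 CPM. In log2 the day 7 difference was 0.56 ± 0.10 (SE, adjusted p = 0.034, edgeR), with means of 391 ± 50.6 CPM with powder and 264 ± 22.7 CPM with vehicle (SD, n = 6 each). At day 4 the means were 154 ± 8.19 CPM with powder and 154 ± 8.34 CPM with vehicle (SD, n = 6 each). The difference of the powder effect between the days was 0.56 ± 0.14 (SE, adjusted p = 1, edgeR). The call lay near the threshold: it was lost when any of 10 of the 12 day 7 libraries was left out (adjusted p 0.0134 to 0.282 over all 12, edgeR). It held without powder replicate 3 (0.0134) or vehicle replicate 4 (0.032). The log2 fold change stayed between 0.511 and 0.609 in these 12 omissions. Leaving out the 4 libraries that stood apart gave an adjusted p of 0.0428, while Rusc1 was not called in the fit of 84 libraries (0.807), with only the 12 libraries of day 7 (0.309), without the low-count filter (0.123) or without the term for library series (0.0654, edgeR).

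**Figure D1:**
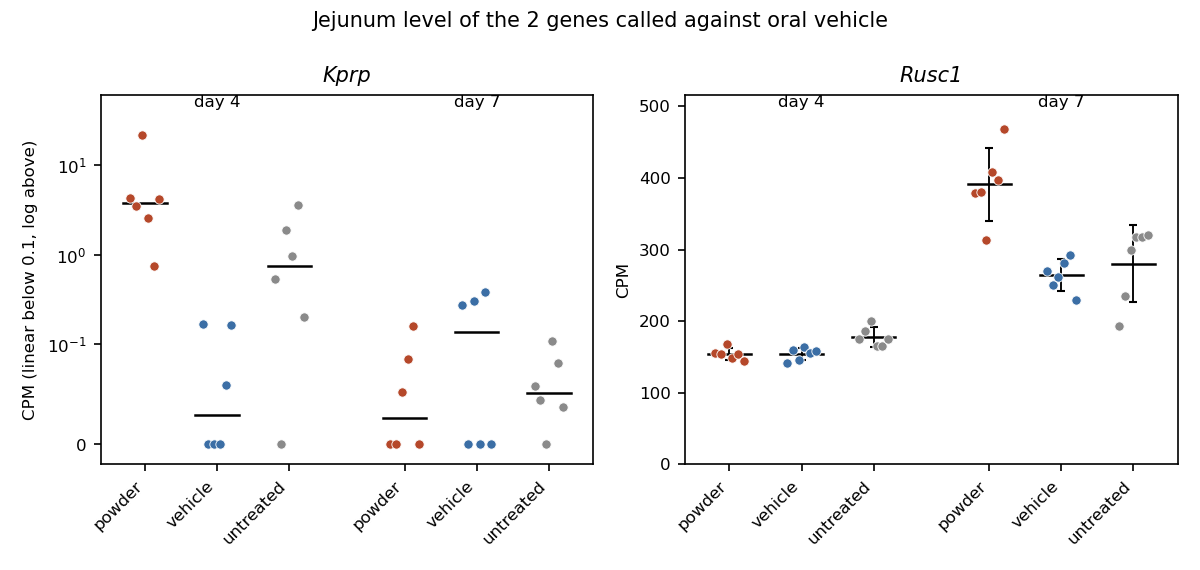
Levels of Kprp (log axis, CPM, bar at the median) and Rusc1 (CPM, mean ± SD) in each library of powder, vehicle and untreated irradiated jejunum at day 4 and day 7, with 6 libraries per group. Kprp separates powder from vehicle at day 4 and Rusc1 at day 7, and neither does on the other day.

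Powder effects at day 7 were set against those at day 4 by an interaction term. No gene was called (0% of 12501, edgeR), 406 genes had an unadjusted p under 0.05, DESeq2 called 1, and the smallest adjusted p was 0.0995, for Kprp, with a difference of -7.89 ± 1.52 (SE, day 7 minus day 4). Differences between the days named below are therefore not called.

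The aryl hydrocarbon receptor targets stood higher with powder, without a called gene. Cyp1a1, the enzyme that serves as the classic readout of the receptor, averaged 741 ± 454 CPM with powder and 123 ± 122 CPM with vehicle at day 4 (SD, n = 6 each). Cyp1b1, a related cytochrome, was the member whose groups did not overlap at day 4. Of the 7 list members 5 could be tested: 4 were higher with powder on each day, 3 at day 4 and 2 at day 7 with an unadjusted p under 0.05, with median log2 fold changes of 1.08 and 0.61.

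Cyp1a1 was at 165, 1377, 1086, 545, 878 and 395 CPM in powder libraries of day 4, against 360, 132, 94.2, 25.6, 83.4 and 42.6 CPM in vehicle libraries. The groups overlapped through powder replicate 1 and vehicle replicate 1, and untreated rats spread from 20.3 to 646 CPM. Day 7 levels of Cyp1a1 were 234, 163, 60.1, 381, 577 and 416 CPM with powder, against 21.5, 44.2, 298, 49.8, 85.4 and 143 CPM with vehicle, again overlapping. Its log2 fold change was 2.65 ± 0.73 at day 4 (SE, adjusted p = 0.406, edgeR), 1.60 ± 0.71 at day 7 (adjusted p = 1) and 2.12 ± 0.51 for the average (adjusted p = 0.358). Within series 2 alone Cyp1a1 was called at day 4 (log2 3.58, adjusted p = 0.0438, edgeR), and within series 1 alone the value was 2.17. DESeq2 called Cyp1a1 at day 4 and for the average, and Cyp1b1 at day 4.

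Cyp1b1 stood at 6.95, 13, 4.83, 15.2, 27.4 and 7.48 CPM with powder at day 4, against 2.08, 0.198, 0.043, 3.7, 0.528 and 1.1 CPM with vehicle. All 6 powder libraries were above all 6 vehicle libraries. Day 7 levels of Cyp1b1 were 8.38, 0.913, 0.21, 5.05, 11 and 4.24 CPM with powder, against 0.43, 2.23, 1.35, 0.211, 1.02 and 5.92 CPM with vehicle, with wide overlap. The log2 fold change was 3.33 ± 0.86 at day 4 (SE, adjusted p = 0.296, edgeR), 1.37 ± 0.80 at day 7 and 2.35 ± 0.59 for the average (adjusted p = 0.358). Ahrr, the repressor that the receptor itself induces, ranged from 0.838 to 1.86 CPM with powder and from 0.337 to 1.06 CPM with vehicle at day 4 (log2 1.08 ± 0.42, SE, adjusted p = 0.988, edgeR). Tiparp, an ADP-ribosylating feedback inhibitor of the receptor, had log2 fold changes of -0.12 ± 0.22 at day 4 and 0.61 ± 0.22 at day 7 (SE, neither called, edgeR).

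Against injected vehicle, the injected form of the preparation had a log2 fold change of Cyp1a1 of -0.29 at day 4 and 0.09 at day 7. The difference of the powder effect and the injection effect, averaged over the days, was 2.22 ± 0.79 for Cyp1a1 (SE, adjusted p = 0.682, edgeR). It was called for 0% of 12748 genes, with 767 at an unadjusted p under 0.05 and 0 called by DESeq2. No gene was thus shown to respond differently to powder and injection. All injected and injected vehicle libraries are of library series 3, and all oral ones of series 1 and 2. Preparation, route and series can therefore not be told apart in this difference.

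Osgin1, an NRF2-responsive regulator of cell growth, had the second smallest p at day 4. It stood at 46.8, 43.9, 67.4, 61.5, 47.9 and 56.9 CPM with powder, against 36.7, 27, 17.9, 19.8, 31.6 and 32.1 CPM with vehicle. The groups did not overlap, and untreated rats ranged from 25 to 57.8 CPM. The log2 fold change was 0.98 ± 0.20 at day 4 (SE, adjusted p = 0.0904, edgeR) and 0.03 ± 0.20 at day 7. It was called by DESeq2 (0.00447). By edgeR it was called with 24 libraries in the fit (0.0189), with the mitochondrial share as covariate (0.00983) and with 84 libraries (0.0137). It was also called when vehicle replicate 1 (0.0405) or powder replicate 2 (0.0432) was left out. It was not called with only the 12 libraries of day 4 or without the 4 libraries that stood apart (0.347). Hmox1, the haem-degrading enzyme induced through NRF2, had a log2 fold change of 0.58 ± 0.27 at day 4, and Nqo1, a quinone reductase, 0.79 ± 0.39 for the average (SE, not called). Of 16 NRF2 targets tested, 12 were higher at day 4 (2 with an unadjusted p under 0.05) and 14 at day 7 (0), with medians of 0.06 and 0.10, close to the median of all genes.

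Goblet cell genes stood lower with powder on both days, again without a called gene. Of 14 members tested, 13 were lower at day 4, 13 at day 7 and 13 for the average, and 8, 1 and 9 of them had an unadjusted p under 0.05. The median log2 fold change was -0.88 at day 4, -0.46 at day 7 and -0.65 for the average. Summed over the list, the level ran from 998 to 2266 CPM with powder (median 1353) and from 1489 to 3613 CPM with vehicle (median 2057) at day 4. At day 7 it ran from 1274 to 1878 CPM with powder (median 1539) and from 1346 to 2536 CPM with vehicle (median 2046), so the groups overlapped on both days.

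Bcas1, a goblet cell gene of the list first described in breast cancer, was at 2.87, 5.4, 3.42, 3, 5.83 and 3.2 CPM with powder at day 4, against 7.36, 6.97, 10.2, 13.4, 16.3 and 6.89 CPM with vehicle. All powder libraries were below all vehicle libraries. Day 7 levels of Bcas1 were 7.73, 7.21, 5.76, 14.8, 15.7 and 10.4 CPM with powder, against 24.6, 19.6, 5.61, 20.1, 27.5 and 26.4 CPM with vehicle, where vehicle replicate 3 lay below all powder values and the other 5 vehicle libraries above them. The log2 fold change was -1.35 ± 0.43 at day 4, -1.01 ± 0.42 at day 7 and -1.18 ± 0.30 for the average (SE, adjusted p = 0.358 for the average, edgeR). Untreated rats ranged from 1.7 to 6.11 CPM at day 4, which spans the range of the powder group.

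Spdef, the transcription factor of goblet cell maturation, ranged from 3.51 to 9.30 CPM with powder and from 8.10 to 16.5 CPM with vehicle at day 4 (log2 -0.86 ± 0.29, SE). Its untreated range was 2.28 to 7.54 CPM. Muc2, the secreted gel-forming mucin, was read from a row matched by a RefSeq synonym that may not hold Muc2 alone, and ranged from 97.6 to 455 CPM with powder and from 280 to 946 CPM with vehicle at day 4, and from 116 to 202 CPM with powder and from 174 to 383 CPM with vehicle at day 7 (average log2 -0.82 ± 0.30, SE). Spink4, a protease inhibitor of goblet cells, had a log2 fold change of -1.12 ± 0.49 and Clca1, a mucus-processing protein, of -1.40 ± 0.65 at day 4, and Capn9, a digestive-tract calpain, of -0.74 ± 0.29 for the average (SE, not called). The count of goblet members with an unadjusted p under 0.05 at day 4 was 1 in series 1 alone (median log2 -0.57), 9 in series 2 alone (median -1.10), 5 without the 4 libraries that stood apart and 2 without powder replicate 3.

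**Figure D2:**
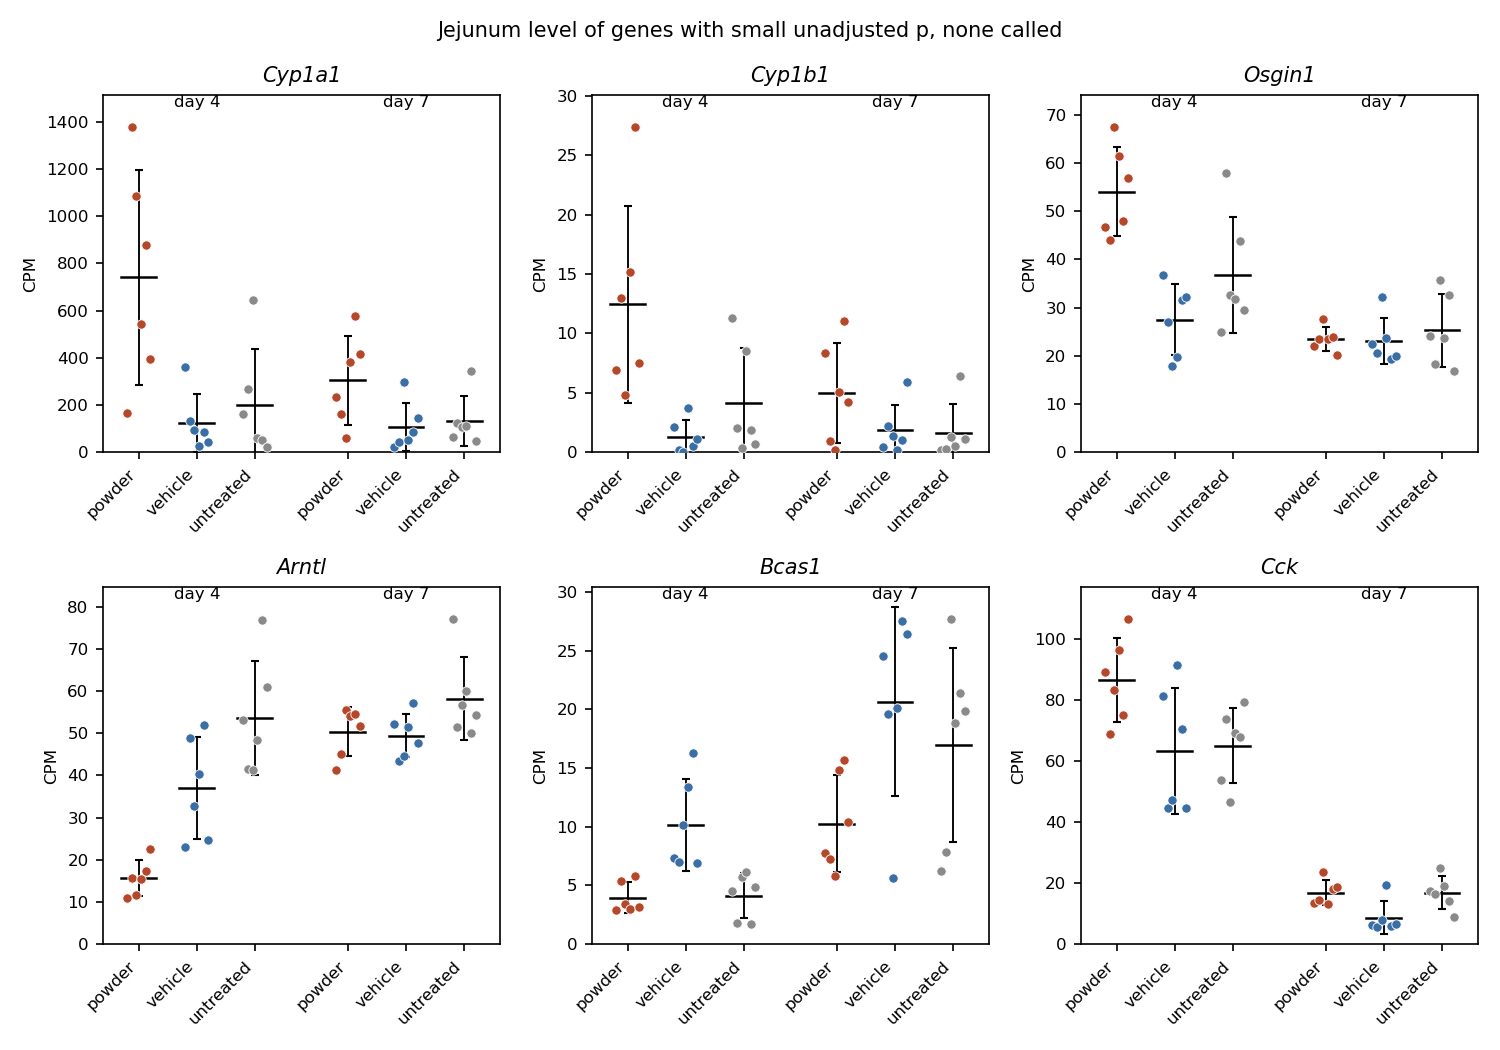
Levels in CPM of Cyp1a1, Cyp1b1, Osgin1, Arntl, Bcas1 and Cck in each powder, vehicle and untreated irradiated jejunum library at day 4 and day 7, with mean ± SD (n = 6, error bars cut at 0). Cyp1b1, Osgin1, Arntl and Bcas1 do not overlap between powder and vehicle at day 4, and none of the 6 genes was called by edgeR with 42 libraries.

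Markers of cells below the epithelium stood higher with powder at day 4. Of the 11 endothelial, 16 fibroblast and matrix and 12 smooth muscle genes listed, 9, 15 and 10 passed the low-count filter. At day 4 all 9 endothelial genes tested were higher (5 with an unadjusted p under 0.05, median log2 1.52), as were 14 of 15 fibroblast and matrix genes (6, median 1.34) and 8 of 10 smooth muscle genes (5, median 1.07). At day 7 the counts higher were 0 of 9, 2 of 15 and 3 of 10, with medians of -0.43, -0.46 and -0.09. These day 7 values rested on single libraries: without vehicle replicate 5, whose fibroblast sum of 184 CPM stood against 21.8 to 66.2 CPM in the other 5 vehicle libraries, 6 endothelial, 14 fibroblast and 7 smooth muscle genes were higher, with medians of 0.09, 0.69 and 0.26. No gene of these lists was called, and their part in the other day 4 differences was not tested.

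Their levels were low. The endothelial sum ran from 13.4 to 36.5 CPM with powder (median 17.1) and from 7.08 to 20.2 CPM with vehicle (median 10.9) at day 4, and from 9.25 to 17.5 CPM in untreated rats. The fibroblast sum ran from 35.5 to 84.1 CPM with powder (median 48.7) and from 11.3 to 121 CPM with vehicle (median 27.9). The smooth muscle sum ran from 162 to 211 CPM with powder (median 183) and from 163 to 201 CPM with vehicle (median 186), without separation, and 0 members of these lists were at 0 in all 24 libraries.

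Plvap, an endothelial diaphragm protein, was at 1.62, 1.73, 1.28, 10.5, 2.72 and 4.54 CPM with powder at day 4, against 1.29, 0.099, 0.174, 1.39, 0.939 and 0.22 CPM with vehicle, overlapping narrowly (log2 2.36 ± 0.83, SE). Actg2, the smooth muscle gamma actin, had a log2 fold change of 2.7 ± 0.88, Dcn, the matrix proteoglycan decorin, of 1.88 ± 0.76, and Pdgfrb, a receptor of pericytes and fibroblasts, of 1.60 ± 0.60 at day 4 (SE, not called). Jchain, which joins secreted immunoglobulins in plasma cells, ranged from 1.16 to 6.40 CPM with powder and from 0.198 to 1.12 CPM with vehicle at day 4, without overlap (log2 2.28 ± 0.86, SE, adjusted p = 0.988, edgeR). The endothelial count with an unadjusted p under 0.05 was 4 without the 4 libraries that stood apart, 1 and 2 in series 1 and 2 alone, and 2 without powder replicate 4. The fibroblast count was 3 without the 4 libraries, 1 and 0 in the series alone, and 2 without vehicle replicate 2.

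**Figure D3:**
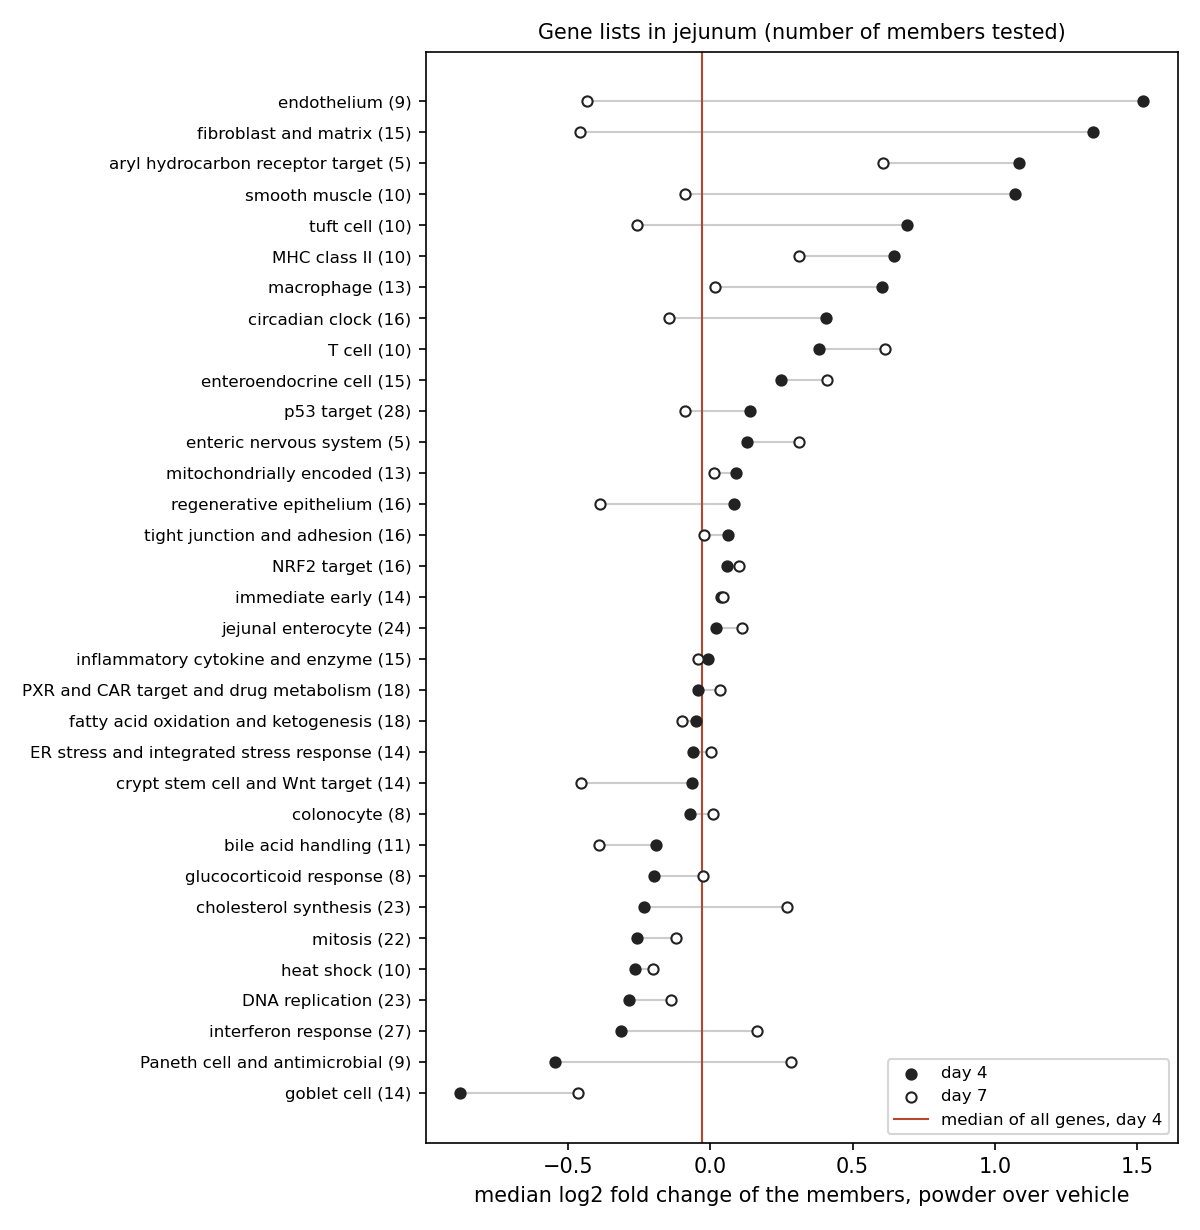
Median log2 fold change (powder over vehicle) of each gene list with at least 5 members tested, filled points for day 4 and open points for day 7, with a red line at the day 4 median of all genes. The endothelial, fibroblast, receptor target and smooth muscle lists lie farthest to the right at day 4, and the goblet list lies left of the line on both days.

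Among the circadian genes, Arntl, the transcription factor at the core of the clock, stood at 10.9, 15.6, 11.6, 15.5, 17.5 and 22.6 CPM with powder at day 4, against 23.1, 48.8, 32.7, 40.4, 51.9 and 24.7 CPM with vehicle. All powder libraries were below all vehicle libraries, and untreated rats ranged from 41.2 to 76.8 CPM, above all powder libraries and overlapping with vehicle. The log2 fold change was -1.28 ± 0.31 at day 4 (SE, adjusted p = 0.218, edgeR) and 0.03 ± 0.30 at day 7, and DESeq2 called it at day 4 (0.0342). By edgeR, Arntl was called at day 4 with 24 libraries in the fit (0.00385), with the mitochondrial share as covariate (0.0404) and with 84 libraries (0.0283). It was not called with only the 12 libraries of day 4. Its partner Clock had -0.32 ± 0.12, Nfil3, a repressor of clock output, -1.05 ± 0.50, and the output genes Ciart and Dbp 1.34 ± 0.59 and 1.01 ± 0.56 at day 4 (SE, not called). Of the 16 clock genes tested at day 4, 9 were higher and 7 lower, with 1 and 3 at an unadjusted p under 0.05. The hour of sampling is not given in the labels, so treatment and time of day cannot be told apart for these genes.

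Genes of cell division showed no called difference and turned with the library series. For the average, 22 of 22 mitosis genes and 22 of 23 DNA replication genes were lower with powder, none with an unadjusted p under 0.05, with medians of -0.19 and -0.21. Without vehicle day 4 replicate 3, 12 mitosis genes were higher (median 0.00) and 5 DNA replication genes (median -0.05). Within series 1 alone all 22 mitosis genes were lower (median -0.61), and within series 2 alone all 22 were higher (median 0.35). DNA replication genes gave 23 of 23 lower (median -0.65) in series 1 and 22 of 23 higher (median 0.27) in series 2. Mki67, the proliferation marker, ranged from 29.2 to 52.9 CPM with powder and from 22.4 to 108 CPM with vehicle at day 4, overlapping.

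Of 14 crypt stem cell and Wnt target genes tested, 12 were lower for the average (4 with an unadjusted p under 0.05, median -0.28), while series 2 alone gave 8 higher and 6 lower. The count at an unadjusted p under 0.05 was 1 without vehicle day 4 replicate 3, one of the libraries that stood apart (median -0.12). Olfm4, a marker of crypt base stem cells in humans, was at 0.838, 3.79, 0.183, 1.19, 1.46 and 0.929 CPM with powder at day 4, against 9.32, 14.2, 159, 2.61, 1.58 and 1.87 CPM with vehicle. The groups overlapped, and vehicle replicate 3, one of the libraries that stood apart, was far above the rest. For Olfm4 the log2 fold change was -4.24 ± 0.96 at day 4 (SE, adjusted p = 0.125, edgeR; called by DESeq2 at 0.00247 and by edgeR with 84 libraries at 0.0137) and -2.0 without the 4 libraries that stood apart, and it was -5.22 in series 1 and -0.75 in series 2. Lgr5, the Wnt-responsive stem cell receptor, had log2 fold changes of 0.30 ± 0.46 at day 4 and -1.11 ± 0.45 at day 7, and Smoc2, a matrix protein of the stem cell zone, -0.91 ± 0.37 for the average (SE, not called).

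Averaged over the days, radiation response genes were close to vehicle. Of 28 p53 targets, 14 were higher and 14 lower for the average, with a median of -0.02, equal to that of all genes at this rounding. The days differed in sign: 20 were higher and 8 lower at day 4 (median 0.14), and 10 higher and 18 lower at day 7 (median -0.09). An unadjusted p under 0.05 was reached by 1 higher and 1 lower gene at day 4, and by 0 higher and 2 lower genes at day 7. Cdkn1a, the cell cycle inhibitor induced by p53, had an average log2 fold change of 0.05 ± 0.11, and Mdm2, the p53 ubiquitin ligase, of 0.07 ± 0.10 (SE, not called). Gadd45a, a growth arrest gene, had 0.37 ± 0.11 (SE, adjusted p = 0.809, edgeR). Il1b, the inflammatory cytokine, had 0.18 ± 0.44, and 6 of 15 inflammatory genes were higher for the average, with 0 at an unadjusted p under 0.05, and 11 without vehicle day 4 replicate 4.

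Absorptive enterocyte genes moved with single libraries: 14 of 24 were higher at day 4 and 20 at day 7, none with an unadjusted p under 0.05, with medians of 0.02 and 0.11. Leaving out 1 library gave 11 to 23 higher at day 4, lowest without vehicle replicate 3 or 4 and highest without vehicle replicate 5 (median 0.26). At day 7 it gave 6 without vehicle replicate 2 (median -0.07) and 24 without vehicle replicate 3 or 4 (median 0.59 without replicate 4, 5 genes with an unadjusted p under 0.05). Lct, the lactase, had an average log2 fold change of -0.17 ± 0.70, and Alpi, intestinal alkaline phosphatase, of 0.04 ± 0.31 (SE, not called).

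Fgf19, the bile acid-induced hormone of the intestine whose rodent form is often called Fgf15, ranged from 1.31 to 6.24 CPM with powder and from 7.87 to 60.9 CPM with vehicle at day 7, without overlap (average log2 -2.48 ± 0.69, SE, adjusted p = 0.527, edgeR). At day 4 its range was 1.45 to 12.1 CPM with powder and 1.35 to 90.9 CPM with vehicle. Slc10a2, the ileal bile acid transporter, had a log2 fold change of 0.72 ± 0.33 at day 7 (SE, not called). Of 11 bile acid genes tested, 4 were higher and 7 lower for the average, with a median of -0.41, and 6 were higher without vehicle day 7 replicate 4, with a median of 0.03.

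Cholesterol synthesis genes had opposite signs on the 2 days: 19 of 23 were lower at day 4 (1 with an unadjusted p under 0.05, median -0.23) and 22 of 23 higher at day 7 (3, median 0.27). The sum at day 7 ran from 2197 to 2872 CPM with powder (median 2655) and from 1744 to 2470 CPM with vehicle (median 2234). Sqle, squalene epoxidase, had a log2 fold change of 0.51 ± 0.25 and Msmo1, a methylsterol oxidase, of 0.48 ± 0.22 at day 7 (SE, not called). In series 2 alone 15 genes were higher at day 4.

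Enteroendocrine genes stood slightly higher, 13 of 15 for the average (2 with an unadjusted p under 0.05, median 0.33). Without vehicle day 7 replicate 4 the count at an unadjusted p under 0.05 was 7 (median 0.40). Cck, the hormone that stimulates gallbladder and pancreas, was at 13.6, 14.3, 23.8, 13, 17.9 and 18.9 CPM with powder at day 7, against 6.41, 5.75, 7.97, 19.4, 6.08 and 6.52 CPM with vehicle. Only vehicle replicate 4, one of the libraries that stood apart, lay among the powder values. The average log2 fold change was 0.71 ± 0.19 (SE, adjusted p = 0.448, edgeR) and that at day 7 was 0.97 ± 0.27. Without vehicle day 7 replicate 4 Cck was called at day 7 (log2 1.38, adjusted p = 0.0212, edgeR), and without all 4 libraries that stood apart the adjusted p was 0.0428.

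Tuft cell genes were higher at day 4 in 9 of 10 cases (3 with an unadjusted p under 0.05, median 0.69) and lower at day 7 in 7 of 10 (2, median -0.26). The day 4 count at an unadjusted p under 0.05 was 0 without vehicle replicate 3 and 6 without vehicle replicate 4, with 9 of 10 higher in both cases, and 5 of 10 were higher at day 7 without vehicle replicate 5 (median -0.01). Avil, the actin-binding protein advillin of the tuft, had log2 fold changes of 0.28 ± 0.41 at day 4 and -1.40 ± 0.42 at day 7 (SE, not called). Ptgs1, a cyclooxygenase, had 0.74 ± 0.43 and -1.37 ± 0.44 (SE, not called). Without the 4 libraries that stood apart Avil was called at day 7 (log2 -1.72, adjusted p = 0.0428, edgeR). The tuft sum at day 4 ran from 58.4 to 86.5 CPM with powder (median 72.6) and from 18.6 to 83.2 CPM with vehicle (median 47.7), overlapping.

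All 10 antigen-presenting MHC class II genes were higher at day 4 (median 0.65) and 9 of 10 at day 7 (median 0.31), with 0 at an unadjusted p under 0.05. That count was 5 without vehicle replicate 5 at day 4, and 5 genes were higher at day 7 without powder replicate 3 (median -0.01). Their sum at day 4 ran from 3516 to 4842 CPM with powder (median 4352), inside the vehicle range of 1220 to 5091 CPM (median 2641). Interferon response genes were lower at day 4 in 21 of 27 cases (median -0.31) and higher at day 7 in 20 of 27 (median 0.16). Ifit3 and Mx1, antiviral effectors, had log2 fold changes of -1.36 ± 0.51 and -0.97 ± 0.38 at day 4, while the chemokine Cxcl10 had 0.78 ± 0.38 (SE, not called). Reg3g and Reg3b, antimicrobial lectins, had 1.80 ± 0.90 and 1.92 ± 0.91 at day 7 (SE, not called).

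Other lists had no called gene either. Genes of regenerating epithelium were higher in 10 of 16 cases at day 4 (median 0.08) and lower in 14 of 16 at day 7 (median -0.39), and without vehicle replicate 3 of day 4 the count higher was 7 (median -0.09). Paneth cell and antimicrobial genes were lower in 7 of 9 at day 4 (median -0.55) and higher in 7 of 9 at day 7 (median 0.28). Without vehicle replicate 3 at day 4, 6 Paneth genes were higher (median 0.03), and without powder replicate 4 at day 7, 3 were higher (median -0.07). Heat shock genes were lower in 9 of 10 and 8 of 10 (medians -0.26 and -0.20). Macrophage genes were higher in 10 of 13 at day 4 and 8 of 13 at day 7 (medians 0.60 and 0.02). The day 7 count was 3 without powder replicate 5 or vehicle replicate 3 and 11 without vehicle replicate 5. The macrophage sum was not higher at day 4, at 163 to 213 CPM with powder and 200 to 287 CPM with vehicle. At day 7 it overlapped, at 111 to 278 CPM with powder and 53 to 261 CPM with vehicle. T cell genes were higher in 8 of 10 and 9 of 10 (medians 0.38 and 0.62). Their sums overlapped, at 43.8 to 81.1 CPM with powder and 48.3 to 99.6 CPM with vehicle at day 4. At day 7 they ran from 51 to 85.8 CPM with powder and from 36.9 to 69.6 CPM with vehicle. Drug metabolism genes under the receptors PXR and CAR were higher in 7 of 18 at day 4 and 11 of 18 at day 7, with medians of -0.04 and 0.03. Leaving out 1 library gave 5 (without vehicle replicate 3) to 13 (without vehicle replicate 5) at day 4, and 6 (without vehicle replicate 6) to 16 (without vehicle replicate 4) at day 7.

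Genes outside these lists with the smallest p-values were also not called by edgeR with 42 libraries. Of those named in this paragraph, DESeq2 called Mcf2l for the average (0.0399). At day 4 DESeq2 called Rab37 (0.0214), Tbc1d2b (0.00447), Cfap65 (0.0314), Plekha3 (0.0342) and Efna3 (0.04). For the average the genes with the smallest p-values included Mcf2l at -0.80 ± 0.18 (SE, adjusted p = 0.332, edgeR). Another was B3gnt3, a glycosyltransferase of mucin-type glycans, at -0.97 ± 0.23 (adjusted p = 0.358). Mcf2l ranged from 4.25 to 6.96 CPM with powder and from 6.46 to 14.2 CPM with vehicle at day 4, and from 7.23 to 11.9 CPM with powder and from 9.92 to 23.8 CPM with vehicle at day 7, overlapping on both days. By edgeR, Rab37 was called at day 4 with the mitochondrial share as covariate (0.00422), with 84 libraries (0.0283) and without vehicle replicate 5 (0.035), Tbc1d2b with the mitochondrial share (0.0457) and without vehicle replicate 1 (0.0405) or powder replicate 1 (0.0446), and Efna3 in series 2 alone (0.011). Smaller average values were 0.27 for Plekha3, -0.40 for Mfsd12, 0.31 for Lsm1 and 0.28 for Tvp23a. At day 4 Rab37, a small GTPase of secretory vesicles, had 1.32 ± 0.30 (adjusted p = 0.125), Tbc1d2b, a GTPase-activating protein, -0.40 ± 0.09 (0.107), Cfap65, a protein of cilia and flagella, 1.44 ± 0.35 and Efna3, an ephrin, 0.90 ± 0.23. At day 7 Numa1, a protein of the spindle poles, ranged from 66.9 to 82.9 CPM with powder and from 94.5 to 106 CPM with vehicle, without overlap (log2 -0.37 ± 0.10, SE, adjusted p = 0.942, edgeR), and Grb14, an adapter of the insulin receptor, had -0.98 ± 0.27.

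The same powder against vehicle contrast in colon gave a different picture at day 4. In 1 fit of 84 jejunum and colon libraries, the powder effect differed between jejunum and colon for 55 of 13741 genes at day 4 (39 higher and 16 lower in jejunum than in colon), which is 0.4%. At day 7 it was called for 0% (edgeR; 257 genes at an unadjusted p under 0.05, 0 called by DESeq2), and for the average for 2 genes, Apoc2 and Sall4, which is 0.0146%. Among the 55 genes, the colon effect was the larger in 44, with a median absolute log2 fold change of 0.326 in jejunum and 1.467 in colon, and 0 were called in jejunum alone against 45 in colon alone. The 55 were selected by this difference, so these values only describe them, and over all 13741 genes the same fit called 11 in jejunum and 924 in colon. The labels do not say whether jejunum and colon libraries came from the same rats, and CPM in this fit are scaled over both tissues and so differ from those above.

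Spdef and Spink4, both goblet cell genes, differed between the tissues at day 4, with jejunum minus colon values of -1.88 ± 0.43 and -2.58 ± 0.60 (SE, adjusted p = 0.0323 each, edgeR). Spdef averaged 7.56 ± 2.74 CPM with powder and 13.5 ± 3.44 CPM with vehicle in jejunum, and 76.3 ± 23.3 CPM with powder and 37.5 ± 6.67 CPM with vehicle in colon (SD, n = 6 each). Spink4 averaged 24.8 ± 13.6 CPM with powder and 53.6 ± 18.8 CPM with vehicle in jejunum, and 210 ± 81.3 CPM with powder and 76.5 ± 24.4 CPM with vehicle in colon. The powder and vehicle means thus stood in opposite order in the 2 tissues. Leaving out single libraries ended the Spdef call in 10 of 24 cases (adjusted p up to 0.0879, edgeR): colon vehicle replicates 3, 5 and 6, colon powder replicates 2 and 4, jejunum vehicle replicates 2 and 3, and jejunum powder replicates 1, 3 and 4. The Spink4 call ended in 9 of 24, the same libraries without jejunum vehicle replicate 2. Over the goblet list 13 of 14 differences were negative (median -1.10), with 9 of 14 genes higher with powder in colon.

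Hmox1 differed in the other direction, by 1.71 ± 0.40 (SE, adjusted p = 0.0368, edgeR), with 143 ± 57.2 CPM with powder and 99.8 ± 43.8 CPM with vehicle in jejunum and 21.2 ± 6.33 CPM with powder and 47.9 ± 31.2 CPM with vehicle in colon (SD, n = 6 each). The Hmox1 call ended in 9 of 24 cases (adjusted p up to 0.148, edgeR): colon vehicle replicates 5 and 6, colon powder replicates 2 and 4, jejunum vehicle replicates 2, 3 and 5, and jejunum powder replicates 1 and 4. Apoc2, an activator of lipoprotein lipase, differed by 4.28 ± 0.77 (adjusted p = 0.00648) and Sall4, a stem cell transcription factor, by 4.59 ± 0.88 (adjusted p = 0.0117). Apoc2 averaged 2354 ± 428 CPM with powder and 2117 ± 778 CPM with vehicle in jejunum, against 1.53 ± 1.18 CPM with powder and 30.2 ± 40.7 CPM with vehicle in colon, where vehicle replicates 4 and 6 carried the colon mean, at 91 and 73.5 CPM against 3.58 to 5 CPM in the other 4. Ggt1, a glutathione-cleaving enzyme, differed by 3.29 ± 0.65, Nynrin by 2.13 ± 0.42, Gdpd5, a phosphodiesterase, by 1.33 ± 0.28 and Ca8, a carbonic anhydrase-related protein, by -2.35 ± 0.50 (SE, each called, edgeR). Sall4 was near the floor in colon at day 4, from 0 to 0.084 CPM with powder and from 0 to 1.23 CPM with vehicle. In jejunum it ranged from 0.404 to 1.23 CPM with powder and from 0.507 to 1.13 CPM with vehicle, so the size of its difference rests on few counts. Apoc2 and Sall4 stayed called in all 24 omissions (adjusted p up to 0.0354 and 0.0393), but Apoc2 was lost with only the libraries of the contrast in the fit (0.109 at day 4, 0.0675 averaged), and both averaged calls with limma-voom and library number as block (0.134 each). Ggt1 was lost without colon vehicle replicate 6 (0.0509), Nynrin without colon vehicle replicate 5 (0.0575), Gdpd5 without either of these or colon powder replicate 4 (up to 0.0646), and Ca8 without these 3, colon powder replicate 2, jejunum vehicle replicate 3 or jejunum powder replicate 1 (up to 0.0646). Cyp1a1 did not pass, at 3.22 ± 0.98 (adjusted p = 0.104). The count of 55 moved between 3 and 271 with single libraries. Among colon vehicle libraries it was 31 without replicate 1, 271 without replicate 2, 21 without replicate 3, 115 without replicate 4, 3 without replicate 5 and 4 without replicate 6. Among colon powder libraries it was 5 without replicate 2, 23 without replicate 3, 4 without replicate 4 and 90 without replicate 5. Among jejunum libraries it was 7, 25 and 11 without powder replicates 1, 3 and 4, and 26, 15, 6, 216 and 28 without vehicle replicates 1, 2, 3, 4 and 5.

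**Figure D4:**
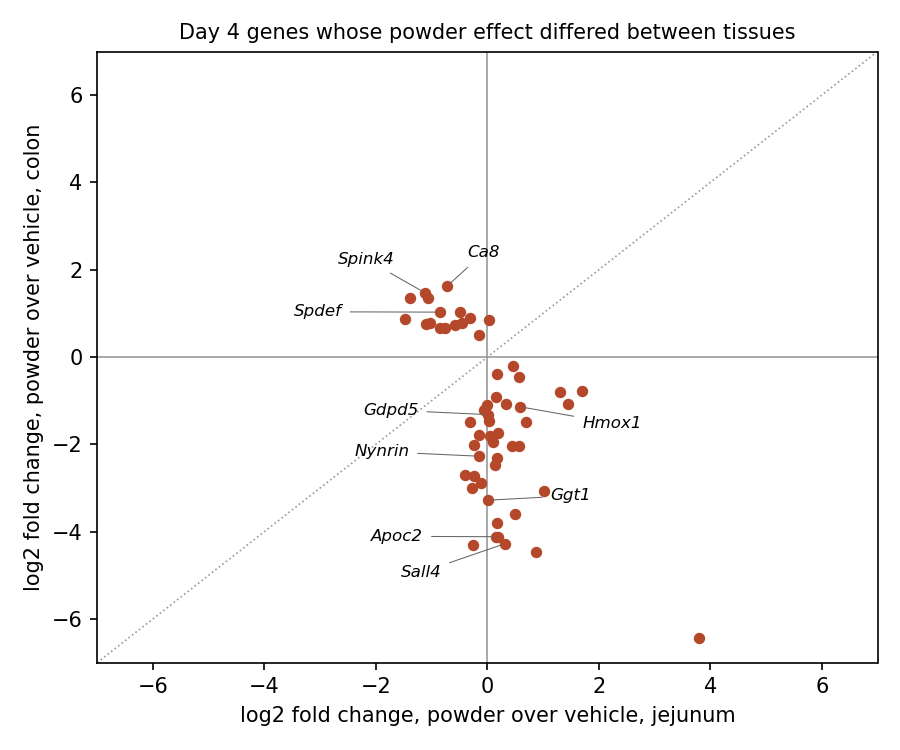
Log2 fold change of powder over vehicle at day 4 in jejunum (x axis) and in colon (y axis) for the 55 genes whose powder effect differed between the tissues, with a dotted line where both are equal. Most points spread along the colon axis and lie near 0 on the jejunum axis, with median absolute values of 0.326 in jejunum and 1.467 in colon.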

How the data were processed

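Gene counts of bulk RNA libraries (paired-end, DNBSEQ-G400) were deposited by the authors as whole-number counts per gene, not normalized. STAR 2.7.10a and build mRatBN7.2 are named in the submitters' processing notes. For the counter, its annotation and its strand setting, nothing is given in the sources used here. Both tables hold 21837 genes in 168 library columns, and 36 libraries present in both tables were used once. Muc2 was matched to the row AABR07006030.1 by its RefSeq synonym, and whether that row holds Muc2 alone is not stated.

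Computed here were TMM-scaled CPM and edgeR 4.0.16 quasi-likelihood F tests (R 4.3.3) over the 42 jejunum libraries of the non-irradiated, untreated, vehicle and powder groups, with group and library series as terms and genes filtered by expression in groups. Contrasts were powder minus vehicle at day 4, at day 7 and averaged, and their differences between days, tissues (84 libraries) and from the injection (66 libraries). DESeq2 1.42.0 and limma 3.58.1 were alternatives. P-values were adjusted over all genes tested. The test steps were tested on simulated data.

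Named are the 10 genes with the smallest p per contrast at a mean of at least 5 CPM, up to 4 members per list by the averaged p, a panel of 10 genes, and up to 6 called genes per interaction; some of these are not reported here. Kprp, 2310050C09Rik, the genes of the closing observations and list examples given for a single day fall outside this rule and were chosen after their values were seen. The members and lists, 39 lists of 601 symbols of which 580 matched, were chosen with earlier results of these data known.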

Additional observations from a re-analysis of the deposited data

Results flagged for a closer look

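Within groups of 6 libraries, 1 library lay far from the other 5 in 26 of 248 groups examined (10.5%), by the gap to its nearest neighbour relative to the range of the group (Dixon's 95% limit). Chance flags about 1 in 20 groups if the values are normally distributed, which was not tested for these CPM. The 10.5% can therefore not be read as an excess over that rate. Genes of the same library are also not independent.

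At day 4, powder replicate 3 was high for Kprp (21.77 CPM, nearest 4.251), Ciart (25.56, nearest 14.87) and Rab37 (26.11, nearest 14.7). Powder replicate 4 was high for Plvap (10.52 CPM, nearest 4.541) and powder replicate 2 for Olfm4 (3.787, nearest 1.459). Vehicle replicate 3 of day 4, which stood apart on the principal components, was high for Olfm4 (158.7 CPM, nearest 14.18), Clca1 (324.4, nearest 94.12), Smoc2 (34.56, nearest 11.91) and Bub1b (21.06, nearest 9.338). Vehicle replicate 4 was high for Dcn (0.6665 CPM, nearest 0.2808) and Vwf (0.9089, nearest 0.3306), replicate 5 for Muc2 (945.6, nearest 488.6) and Capn9 (5.222, nearest 2.618), and replicate 1 for Cyp1a1 (359.9, nearest 131.5).

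At day 7, powder replicate 3, which stood apart, was high for Lct (1412 CPM, nearest 244) and Alpi (2722, nearest 1283), replicate 4 for Fgf19 (6.238, nearest 3.101) and replicate 5 for Ccl5 (1.014, nearest 0.4013). Vehicle replicate 4, which also stood apart, was high for Cck (19.36 CPM, nearest 7.968) and Chga (24.96, nearest 11.23). Vehicle replicate 3 was high for Gadd45a (79.13 CPM, nearest 55.35) and low for Bcas1 (5.613, nearest 19.59). Vehicle replicate 5 was high for Fgf19 (60.92 CPM, nearest 22.58), Ahrr (1.025, nearest 0.4532) and Gsta1 (0.6457, nearest 0.3694), and replicate 6 for Cyp1b1 (5.925, nearest 2.231).

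The powder effect differed between jejunum and colon by the interaction test in edgeR. At day 4 the jejunum minus colon values were 1.715 for Hmox1, -1.882 for Spdef, -2.58 for Spink4, 4.276 for Apoc2, 4.591 for Sall4, 3.294 for Ggt1, 2.126 for Nynrin, 1.334 for Gdpd5 and -2.345 for Ca8. Averaged over the days they were 2.605 for Apoc2 and 2.776 for Sall4.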

How the results depend on the processing

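Called genes at day 4 numbered 16 with DESeq2, 3 with 24 and 0 with 12 libraries in the fit, 7 with the mitochondrial share as covariate, 0 and 17 in series 1 and 2 alone, 11 with 84 libraries, and 1 to 4 leaving out 1 library (4 without vehicle replicate 1, 3 without powder replicate 2, and 2 without vehicle replicate 2 or 5 or powder replicate 1). At day 7 they numbered 0 without the low-count filter, with 12 libraries, without library series, and in either series alone, 6 without the 4 libraries that stood apart, and 0 to 3 leaving out 1 library (3 without vehicle replicate 4). With the replicate block 0 genes were called at day 7 (Rusc1 adjusted p = 0.0997) and 1 in the day interaction (Kprp, 0.0401). Replicate numbers were not taken to pair the libraries, since same-numbered deviations correlated at -0.26 to 0.43 at day 4 (median 0.034, other pairs -0.035) and -0.43 to 0.79 at day 7 (median 0.256, other pairs -0.0062), and 1 and 3 of 6 correlated best with their own number. For the average DESeq2 called 3 and leaving out 1 library gave 0 to 1 (Cck, without vehicle day 7 replicate 4). The day interaction gave 1 with DESeq2 and 0 to 1 leaving out 1 library. The tissue difference at day 4 gave 192 with DESeq2, 36 without the filter, 17 with only the libraries of the contrast, and 3 to 271 leaving out 1 library. Averaged, it gave 6 with DESeq2, 1 with only the libraries of the contrast and 0 with limma-voom and library number as block. The powder minus vehicle mitochondrial share at day 4 (0.2955 points) was -0.6434 in series 2 alone and -0.4739 to 1.433 leaving out 1 library, and at day 7 (-0.2741) -0.5123 to 0.2144.

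Of 3176 recomputed values for 114 gene results, 3043 kept direction and side of the threshold, 66 lost and 41 gained a call, and 26 turned in sign, in 9 results, none of them called. Series 2 alone gave 0.353 for Mki67, -0.016 for Reg3g, -0.049 for Il1b, -0.028 for Cdkn1a, -0.058 for Mdm2, -0.350 for Alpi and 0.265 for Bub1b, and series 1 alone 0.406 for Tiparp at day 4 and 0.496 for Lct. Without the 4 libraries that stood apart Il1b was at -0.045, Cdkn1a at -0.063, Mdm2 at -0.030 and Lct at 1.172, and without library series Lct was at 0.022. Leaving out 1 library gave -0.271 to 0.090 for Tiparp, -0.253 to 0.001 for Mki67, -0.012 to 0.094 for Cdkn1a, -0.670 to 0.461 for Lct and -0.129 to 0.289 for Alpi. With only the libraries of the contrast in the fit the tissue calls at day 4 of Hmox1 (0.117), Apoc2 (0.109), Nynrin (0.0861) and Gdpd5 (0.0866) were lost. The alternatives with 84 libraries and without the 4 libraries, and the single-library omissions of the tissue difference, were chosen after seeing the data. The cause was not tested.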

Other observations

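The genes below were picked after their day 7 values were seen, so they form no tested group, and none was called by edgeR with 42 libraries. Psca, a surface antigen of gastric epithelium, was at 0.306, 0.274, 0.105, 0.721, 0.041 and 0.134 CPM with powder, against 3.05, 2.13, 0.501, 0.158, 1.44 and 2.46 CPM with vehicle. The groups overlapped only through vehicle replicates 3 and 4, both of which stood apart on the principal components. The log2 fold change was -2.66 ± 0.58 (SE, adjusted p = 0.305, edgeR), and Psca was called without the 4 libraries that stood apart (0.0426), without vehicle replicate 4 (0.0212) and with 84 libraries in the fit (0.0291).

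Tff2, a trefoil peptide of gastric mucus, ranged from 0.052 to 1.57 CPM with powder and from 0.158 to 10.4 CPM with vehicle at day 7 (log2 -2.51 ± 0.69, SE). Pgc, a pepsinogen, had a log2 fold change of -2.37 ± 0.65, Gkn1 and Gkn2, gastrokines of surface mucous cells, -2.59 ± 0.76 and -2.38 ± 0.71, and the water channel Aqp5 -3.32 ± 0.90 (SE, adjusted p 0.942 to 1, edgeR). Krt7, a keratin of simple epithelia, had -1.50 ± 0.52. Untreated irradiated rats at day 7 ranged from 0.133 to 1.48 CPM for Psca and from 0 to 4.95 CPM for Tff2, overlapping with both groups. At day 4 the log2 fold changes were 0.53 ± 0.70 for Psca and -1.19 ± 0.78 for Tff2.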
